A study of Homo sapiens with 16 samples.

Results

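The genes described here are 43 interferon-stimulated, MHC class I and NKG2D ligand genes, of 56969 Ensembl genes in the table of normalized counts for HepG2 cells. They were chosen by symbol from a list of known members, and every symbol was found. One group was HepG2 cells, an established human liver cancer line, transfected with HCF-1 siRNA. They were set against HepG2 cells transfected with a control siRNA. Both groups were kept in the same serum-containing medium and reverse transfected with siPORT NeoFX, again 2 days later, and RNA was taken 2 days after that. No interferon or virus was given to either group, as far as the labels say. There were 8 libraries per group. The labels name them biological replicates but do not say how the cultures were kept apart, and p-values measure the spread between these libraries. The knockdown cells keep part of the targeted transcript, and the sources used here do not give the siRNA sequences.

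Interferons are secreted proteins that act through cell-surface receptors, JAK kinases and STAT transcription factors. The complex of STAT proteins with IRF9 binds a promoter element called the interferon-stimulated response element (ISRE) and turns on antiviral genes such as the IFIT, OAS, MX and IFITM families. MHC class I molecules, made of a heavy chain and beta-2-microglobulin, show peptides from inside the cell to T cells. The TAP transporter carries those peptides into the endoplasmic reticulum. NKG2D ligands such as MICA and MICB are distant relatives of the class I heavy chains that natural killer cells recognise on stressed cells. HCF-1, encoded by HCFC1, is a cofactor that brings chromatin enzymes to promoters.

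The promoter sequences below show the element that links many of these genes. RefSeq promoters on build GRCh38.p14, from 250 bases before to 50 after the gene start, were matched for 34 of the 43 genes. Unmatched were IFIT2, IFITM2, MX2, OAS2, OASL, IRF3, IRF7, HLA-E and NLRC5. The ISRE was searched as GAAANNGAAA on both strands, and 21 of the 34 promoters held it, against 3.65% of 27305 promoters in the same table. The first 3 sequences belong to genes that were lower after HCF-1 siRNA, and the next 2 to genes that did not pass the test. Capitals mark the ISRE, as its reverse complement where it lies on the other strand, and matches that overlap run together.

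ISG15 promoter, chr1:1013247-1013546, plus strand: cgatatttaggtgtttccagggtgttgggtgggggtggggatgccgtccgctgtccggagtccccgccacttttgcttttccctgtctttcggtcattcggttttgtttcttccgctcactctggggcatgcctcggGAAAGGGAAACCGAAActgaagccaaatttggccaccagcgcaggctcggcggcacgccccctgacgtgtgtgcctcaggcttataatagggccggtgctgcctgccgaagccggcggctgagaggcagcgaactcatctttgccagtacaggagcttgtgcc
IFITM3 promoter, chr11:320811-321110, minus strand: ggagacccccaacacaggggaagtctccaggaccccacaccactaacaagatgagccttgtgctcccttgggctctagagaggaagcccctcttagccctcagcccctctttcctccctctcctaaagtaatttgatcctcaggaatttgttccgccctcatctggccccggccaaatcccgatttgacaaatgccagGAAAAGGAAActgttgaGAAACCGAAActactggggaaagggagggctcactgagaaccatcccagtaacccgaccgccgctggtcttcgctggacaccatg
TAP1 promoter, chr6:32853655-32853954, minus strand: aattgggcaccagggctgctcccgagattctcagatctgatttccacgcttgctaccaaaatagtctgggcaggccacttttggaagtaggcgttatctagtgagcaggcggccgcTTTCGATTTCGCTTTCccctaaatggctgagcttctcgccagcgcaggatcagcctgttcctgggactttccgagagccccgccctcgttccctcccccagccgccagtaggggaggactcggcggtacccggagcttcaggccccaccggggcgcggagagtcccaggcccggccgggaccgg
IFIT1 promoter, chr10:89392373-89392672, plus strand: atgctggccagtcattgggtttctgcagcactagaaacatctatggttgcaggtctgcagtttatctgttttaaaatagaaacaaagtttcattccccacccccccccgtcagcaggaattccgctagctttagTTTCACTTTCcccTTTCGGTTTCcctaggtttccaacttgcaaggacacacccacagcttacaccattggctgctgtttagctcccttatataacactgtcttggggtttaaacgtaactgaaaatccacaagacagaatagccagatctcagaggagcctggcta
IFI6 promoter, chr1:27672143-27672442, minus strand: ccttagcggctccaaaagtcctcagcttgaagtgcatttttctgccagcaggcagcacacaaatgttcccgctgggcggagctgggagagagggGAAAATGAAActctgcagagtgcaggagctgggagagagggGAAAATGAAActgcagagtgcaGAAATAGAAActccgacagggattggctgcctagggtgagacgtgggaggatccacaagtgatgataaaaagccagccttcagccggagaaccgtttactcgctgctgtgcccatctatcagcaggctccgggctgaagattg

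The ISRE letters as searched were in 5 of the 9 matched promoters of genes that were lower after HCF-1 siRNA. They were in 14 of the 22 matched promoters of tested genes that did not pass. A gamma-activated site, searched as TTCNNNGAA, was in 7 of the 34 promoters and in 7.88% of all promoters. The motif shared by ZNF143 and THAP11, factors known to recruit HCF-1, was in 0 of the 34 promoters and in 1.96% of all promoters. A match is a run of letters and not a shown binding site. The search allowed a single spacing and no mismatch, so a promoter without a match is not shown to lack the element.

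Values below are the authors' normalized counts, which are reads per gene divided by a size factor for each library. Fold changes are log2 ratios, HCF-1 siRNA divided by control siRNA, and ± gives the standard error (SE), on the scale of log2(normalized count + 1), 8 libraries against 8, so the change of low genes is understated. A gene was called lower or higher where limma's Benjamini-Hochberg adjusted p over all 16081 genes tested was under 0.05. Libraries held 25098840 to 43186890 reads after HCF-1 siRNA and 21030830 to 32820459 reads after control siRNA, so depth moved with the group. Thinned to 21030830 reads in each library, the libraries gave 11 members lower and 0 higher, with IFI35 the call that was lost. HCFC1, the targeted gene, averaged 3682 ± 339.6 normalized counts after HCF-1 siRNA and 5631 ± 671 after control siRNA (SD), so HCF-1 siRNA cells kept 65.4% of the control mean, and no library of 1 group overlapped the other.

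HepG2 identity markers were high in both groups. The 8 hepatocyte markers together had 854182 to 1022677 normalized counts after HCF-1 siRNA and 717434 to 783226 after control siRNA. This sum thus moved with the group. Of the 8 markers 6 were called higher and 1 lower, or 87.5% called, against 36.6% of all genes tested. Of 9 blood cell markers, which include those of natural killer and antigen-presenting cells, CD3E was at 0 in every library and PTPRC at 3.60 normalized counts at most. The sum of blood cell markers, almost all of it lysozyme, was 29062 to 35287 after HCF-1 siRNA and 28152 to 32824 after control siRNA, and 1 of 5 tested was lower (LAPTM5). Endothelial markers summed to 94.6 to 158 after HCF-1 siRNA and 82.0 to 159.9 after control siRNA, with KDR and TEK at 0 throughout and neither of the 2 tested called. The mesenchymal sum was 2380 to 3519 after HCF-1 siRNA and 3641 to 4942 after control siRNA. It moved with the group, 2 of 4 tested markers were lower (TAGLN and COL1A1), and VIM was at 4.65 normalized counts at most. The part of these shifts in the results below was not tested. In these bulk libraries fewer cells of a kind and less RNA per cell cannot be told apart.

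Of the 43 genes, 36 had a mean of 10 normalized counts or more and were tested. By limma 12 of them fell after HCF-1 siRNA and 0 rose, and 24 did not pass. Among all genes tested 36.6% were called, 18.3% lower and 18.2% higher. The share of these genes that was called, 33.3%, was thus near the background, and the share called lower was above it. The genes were chosen with earlier results of these data known, so these shares are descriptions only. At an unadjusted p under 0.05 there were 15 lower and 1 higher. On recovered reads edgeR called 12 lower and 0 higher, and DESeq2 13 lower and 0 higher. The median log2 fold change of the 36 was -0.22, against 0.01 over all genes tested. The values of the 2 groups did not overlap for 6 of the 36, all lower: ISG15, IFITM2, IFITM3, HLA-E, TAP1 and MICB. Among all genes tested 9.82% had groups that did not overlap, 5.23% lower and 4.59% higher.

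**Figure D1:**
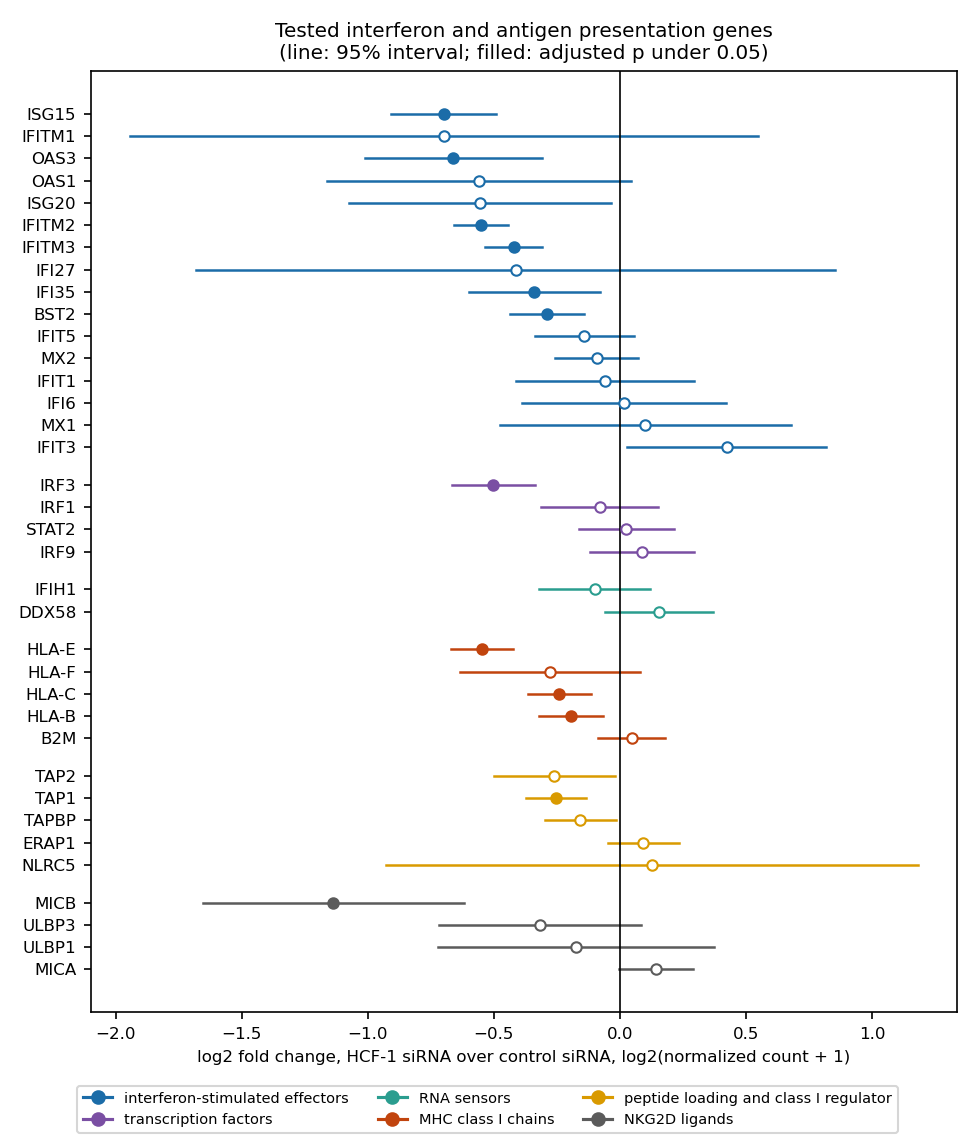
Log2 fold change (HCF-1 siRNA over control siRNA) of each of the 36 tested genes, grouped by role, with its 95% interval as a line. The 12 filled points passed the test and all lie left of 0. MICB is farthest left at -1.14, and IFITM1, IFI27 and NLRC5 have the widest intervals.

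Among the antiviral effectors, 6 genes fell, and the IFIT and MX genes did not pass. Of 16 tested effectors, 6 were lower: ISG15, OAS3, IFITM2, IFITM3, IFI35 and BST2. That is 37.5% of them called, near the 36.6% of all genes tested, and all were lower, against 18.3% lower among all genes tested. ISG15 (ENSG00000187608), a ubiquitin-like protein joined to other proteins after interferon, had 134 to 177 normalized counts after HCF-1 siRNA (median 154), against 196 to 310 after control siRNA (median 246). Every HCF-1 siRNA library lay below every control library. Its log2 fold change was -0.70 ± 0.10 (limma adjusted p = 3.35e-05).

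The IFITM proteins are small membrane proteins that block virus entry. IFITM3 (ENSG00000142089), the effector with the most reads, ran from 3068 to 4048 normalized counts after HCF-1 siRNA (median 3461), against 4426 to 5064 after control siRNA (median 4679), a log2 fold change of -0.42 ± 0.05 (limma adjusted p = 1.16e-05). IFITM2 (ENSG00000185201) had 1057 to 1302 normalized counts after HCF-1 siRNA (median 1176), against 1615 to 1923 after control siRNA (median 1675), a log2 fold change of -0.55 ± 0.05 (limma adjusted p = 4.74e-07). Both genes were lower in all 8 HCF-1 siRNA libraries than in any control library. IFITM1, their neighbour, was at 19.4 to 396 normalized counts after HCF-1 siRNA (median 27.9), against 29.6 to 258 after control siRNA (median 45.6), and did not pass (adjusted p = 0.384). One HCF-1 siRNA library, replicate 8, held the top value of IFITM1, and without it the log2 fold change was -1.17 (limma adjusted p = 0.045). Control siRNA replicates 5 and 7 were high as well, at 218 and 258 normalized counts. The log2 fold change was -0.44 without control siRNA replicate 5 (limma adjusted p = 0.59). It was -0.41 without control siRNA replicate 7 (limma adjusted p = 0.617). The log2 fold change of IFITM1 was -0.29 by edgeR (adjusted p = 0.783) and -1.62 by DESeq2 (adjusted p = 0.00171), with limma values over the other alternatives between these. Exons of IFITM1 and IFITM2 overlap on the same strand in GENCODE 29 over 32.5% of IFITM1's exon length, and the 3 genes are near-identical in part, so reads may be split among them uncertainly. An antisense gene, AC136475.5, covers 21.3% of IFITM3's exon length and had means of 11.5 normalized counts after HCF-1 siRNA and 10.2 after control siRNA, far below IFITM3.

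BST2 (ENSG00000130303), also called tetherin because it holds budding viruses at the cell surface, ran from 939 to 1326 normalized counts after HCF-1 siRNA (median 1222), against 1216 to 1601 after control siRNA (median 1450). All 8 HCF-1 siRNA libraries were below the control median, although the groups overlapped. The log2 fold change was -0.29 ± 0.07 (limma adjusted p = 0.0037). IFI35 (ENSG00000068079) was at 373 to 638 normalized counts after HCF-1 siRNA (median 490), against 444 to 754 after control siRNA (median 663), a log2 fold change of -0.34 ± 0.12 (limma adjusted p = 0.0402). This is the least firm of the 12 calls, as IFI35 lost it in 14 of 26 alternatives (adjusted p 0.00854 to 0.0885). Those were the fits with no filter, with the replicate block and on thinned reads, and without HCF-1 siRNA replicate 1, 2, 4, 6 or 8 or control siRNA replicate 1, 2, 3, 4, 7 or 8.

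The OAS enzymes make a short signal molecule when they meet double-stranded RNA. OAS3 (ENSG00000111331) had 306 to 841 normalized counts after HCF-1 siRNA (median 594), against 646 to 1056 after control siRNA (median 936), a log2 fold change of -0.66 ± 0.17 (limma adjusted p = 0.00484). All 8 HCF-1 siRNA libraries were below the control median, and 5 were below every control library. OAS1 was at 23.6 to 123 normalized counts after HCF-1 siRNA (median 60.3), against 67.5 to 166 after control siRNA (median 91.1), and did not pass (log2 fold change -0.56 ± 0.29, adjusted p = 0.14). OAS2 and OASL were near the floor, with at most 18.6 normalized counts for OAS2 and 8.23 for OASL in any library, and were not tested.

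**Figure D2:**
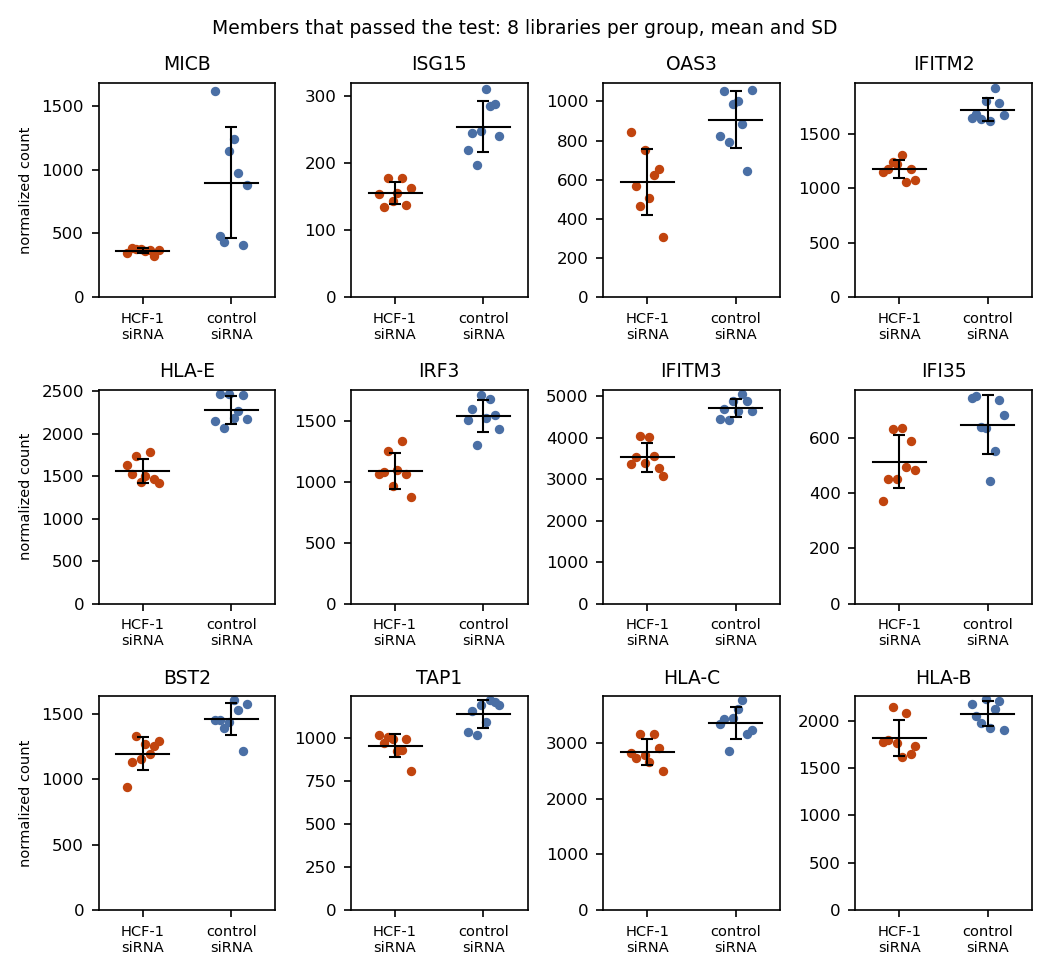
Normalized counts of the 12 genes that passed the test, 1 point per library, with the mean and SD of 8 libraries in black; each axis starts at 0. ISG15, IFITM2, IFITM3, HLA-E, TAP1 and MICB show no overlap between HCF-1 siRNA (left) and control siRNA (right) libraries.

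The IFIT and MX genes and IFI6, which are strongly induced by interferon in many cells, did not pass, and the groups overlapped for each one tested. IFIT1, which binds viral RNA lacking a host cap mark, had 28.1 to 56.8 normalized counts after HCF-1 siRNA (median 43.7), against 32.0 to 60.0 after control siRNA (median 46.2), a log2 fold change of -0.06 with a 95% interval of -0.41 to 0.29. IFI6 had a log2 fold change of 0.02 (95% interval -0.39 to 0.42), with 39.9 to 87.8 normalized counts after HCF-1 siRNA and 41.8 to 106 after control siRNA. MX1, a GTPase that traps viral particles, had 48.9 to 162 normalized counts after HCF-1 siRNA (median 77.4), against 52.0 to 172 after control siRNA (median 73.0), a log2 fold change of 0.10 (95% interval -0.48 to 0.68). The intervals of IFIT1, IFI6 and MX1 all held 0. MX2, the nuclear relative of MX1, had 814 to 1140 normalized counts after HCF-1 siRNA (median 949), against 882 to 1192 after control siRNA (median 1031), with a 95% interval of -0.26 to 0.07. MX2 was thus measured more tightly than MX1. IFIT5 had 128 to 189 normalized counts after HCF-1 siRNA and 146 to 202 after control siRNA, a log2 fold change of -0.14 (95% interval -0.34 to 0.05).

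IFIT3, a partner of IFIT1, was the one effector with a positive log2 fold change past an unadjusted p of 0.05. It had 21.1 to 41.3 normalized counts after HCF-1 siRNA (median 31.0), against 14.6 to 32.5 after control siRNA (median 23.5), and 3 HCF-1 siRNA libraries lay above every control library. With adjustment it did not pass (0.42 ± 0.19, limma adjusted p = 0.0868). ISG20, an exonuclease of single-stranded RNA, had 26.1 to 106 normalized counts after HCF-1 siRNA (median 63.9), against 58.6 to 139 after control siRNA (median 83.1), and did not pass (-0.56 ± 0.25, adjusted p = 0.0886). IFI27 had 4.55 to 73.8 normalized counts after HCF-1 siRNA and 6.30 to 94.4 after control siRNA, a wide spread within each group. The adjusted p of IFI27 was 0.626. IFI44, IFI44L and IFIT2 had at most 1.63, 16.9 and 4.55 normalized counts in any library and were not tested.

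Of the 4 tested members that are transcription factors (IRF1, IRF3, IRF9 and STAT2), IRF3 passed. IRF3 (ENSG00000126456) is phosphorylated after RNA or DNA sensing and then turns on interferon genes. It ran from 876 to 1339 normalized counts after HCF-1 siRNA (median 1077), against 1305 to 1721 after control siRNA (median 1542). In 7 of the 8 HCF-1 siRNA libraries IRF3 was below every control library. The log2 fold change was -0.50 ± 0.08 (limma adjusted p = 9.07e-05). BCL2L12, on the opposite strand, shares 19.3% of IRF3's exon length and had a log2 fold change of -0.19 ± 0.09 (adjusted p = 0.113); the sources used here do not say whether counting used strand.

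STAT2 and IRF9, which are parts of the complex that binds the ISRE, had log2 fold changes of 0.02 (95% interval -0.16 to 0.21) and 0.09 (95% interval -0.12 to 0.29). STAT2 had 648 to 934 normalized counts after HCF-1 siRNA (median 823), against 709 to 1031 after control siRNA (median 781). IRF9 had 217 to 291 normalized counts after HCF-1 siRNA (median 252), against 192 to 295 after control siRNA (median 232). A same-strand gene, AL136295.5, covers 48.4% of IRF9's exon length in GENCODE 29, with mean normalized counts of 66.9 after HCF-1 siRNA and 36.1 after control siRNA (log2 fold change 0.89, limma adjusted p = 0.00607). IRF1 had 208 to 321 normalized counts after HCF-1 siRNA and 218 to 363 after control siRNA (95% interval -0.31 to 0.15). IRF7, the interferon-inducible relative of IRF3, had 0 to 17.3 normalized counts after HCF-1 siRNA and 0 to 7.99 after control siRNA and was not tested.

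Both cytosolic RNA sensors were measured and neither passed. DDX58, which encodes RIG-I, had 198 to 314 normalized counts after HCF-1 siRNA (median 273), against 208 to 293 after control siRNA (median 234), with a log2 fold change of 0.15 (95% interval -0.06 to 0.37, limma adjusted p = 0.252). IFIH1, which encodes MDA5, had 106 to 166 normalized counts after HCF-1 siRNA (median 128), against 118 to 158 after control siRNA (median 140), with a log2 fold change of -0.10 (95% interval -0.32 to 0.12). Of 12 other tested genes of nucleic acid sensing, 1 rose and 3 fell, so 33.3% were called, near the 36.6% of all genes tested. TMEM173, which encodes STING, fell by 0.76 ± 0.15 on the log2 scale, with 46.5 to 98.5 normalized counts after HCF-1 siRNA and 94.5 to 168 after control siRNA (limma adjusted p = 6.34e-04). IKBKE, a kinase of IRF3, fell by 0.61 ± 0.16 (adjusted p = 0.0076), and IRF5 fell by 0.62 ± 0.19 (adjusted p = 0.0162). The gene that rose was IRF2 (0.39 ± 0.09, adjusted p = 0.00264), a factor that competes with IRF1 for its sites, named after its value was seen.

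The class I heavy chains HLA-B, HLA-C and HLA-E fell, while beta-2-microglobulin did not pass. HLA-E (ENSG00000204592), the heavy chain that presents signal peptides of other class I chains to natural killer cells, had 1416 to 1788 normalized counts after HCF-1 siRNA (median 1512), against 2069 to 2467 after control siRNA (median 2223). No HCF-1 siRNA library reached the lowest control library, and the log2 fold change was -0.55 ± 0.06 (limma adjusted p = 1.80e-06). HLA-C (ENSG00000204525) had 2509 to 3174 normalized counts after HCF-1 siRNA (median 2812), against 2870 to 3790 after control siRNA (median 3394), a log2 fold change of -0.24 ± 0.06 (limma adjusted p = 0.00396). HLA-B (ENSG00000234745) had 1617 to 2141 normalized counts after HCF-1 siRNA (median 1771), against 1903 to 2228 after control siRNA (median 2084), a log2 fold change of -0.19 ± 0.06 (limma adjusted p = 0.018). The classical chains HLA-B and HLA-C, which present peptides to T cells, overlapped between groups. HLA-F, a non-classical chain with few reads, had 51.2 to 85.0 normalized counts after HCF-1 siRNA and 54.4 to 114 after control siRNA (adjusted p = 0.215).

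B2M, the light chain that every class I molecule needs, had 3548 to 4724 normalized counts after HCF-1 siRNA (median 4513), against 3625 to 4607 after control siRNA (median 4117). Its log2 fold change was 0.05 with a 95% interval of -0.09 to 0.18 (limma adjusted p = 0.603). Within a library, where scaling cancels, HLA-E over HLA-C was 0.501 to 0.576 after HCF-1 siRNA (median 0.561), against 0.597 to 0.777 after control siRNA (median 0.691). That ratio did not overlap between groups. HLA-B over HLA-C was 0.562 to 0.691 after HCF-1 siRNA (median 0.644) and 0.532 to 0.698 after control siRNA (median 0.62), with wide overlap. The 4 heavy chains summed and divided by B2M gave 1.21 to 2.01 after HCF-1 siRNA (median 1.37), against 1.53 to 2.28 after control siRNA (median 1.90), with some overlap. These ratios are descriptions and were not tested. Class I heavy chain genes are polymorphic and alike in sequence, and the sources used here do not say how reads that match several of them were counted.

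Per kilobase of merged exon (GENCODE 29, another build than the hg19 of the counts), HLA-C had the highest level of the 4 heavy chains, with a mean of 1136 normalized counts per kilobase after HCF-1 siRNA and 1343 after control siRNA. HLA-E stood at 525 per kilobase after HCF-1 siRNA and 766 after control siRNA, and HLA-B at 596 after HCF-1 siRNA and 679 after control siRNA. Within a library, HLA-E per kilobase over HLA-B per kilobase was 0.831 to 0.950 after HCF-1 siRNA (median 0.878) and 1.01 to 1.24 after control siRNA (median 1.14). HLA-E was thus below HLA-B in all 8 HCF-1 siRNA libraries and above it in all 8 control siRNA libraries, a description that rests on these exon lengths and was not tested. HLA-F was the lowest of the 4 in both groups, at 15.4 per kilobase after HCF-1 siRNA and 19.02 after control siRNA. Among the effectors on the same scale IFITM3 was highest, at 2620 after HCF-1 siRNA and 3495 after control siRNA.

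In the peptide loading machinery TAP1 fell. TAP1 (ENSG00000168394), one subunit of the peptide transporter, had 809 to 1018 normalized counts after HCF-1 siRNA (median 985), against 1022 to 1226 after control siRNA (median 1174). The highest HCF-1 siRNA library lay just below the lowest control library. The log2 fold change was -0.25 ± 0.06 (limma adjusted p = 0.00207). TAP2, the other subunit, had 626 to 1126 normalized counts after HCF-1 siRNA (median 955), against 821 to 1334 after control siRNA (median 1138). Its log2 fold change was -0.26 ± 0.11 and did not pass (adjusted p = 0.0824). TAP2 has a second Ensembl row in the table, which was at 0 in every library. TAPBP, or tapasin, which bridges the transporter to class I chains, had 2766 to 3961 normalized counts after HCF-1 siRNA (median 3226), against 3388 to 3999 after control siRNA (median 3631), and did not pass (-0.16 ± 0.07, adjusted p = 0.0787). ERAP1, which trims peptides, had a log2 fold change of 0.09 (95% interval -0.05 to 0.23).

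NLRC5, the transactivator of class I genes, varied too much for a statement. It had 40.3 to 215 normalized counts after HCF-1 siRNA (median 119), against 28.6 to 287 after control siRNA (median 120), with a 95% interval of -0.93 to 1.18 for its log2 fold change. Of 20 other tested genes of class I processing and its control, 9 were lower and 0 higher by limma. That is 45.0% lower, against 18.3% lower among all genes tested. This list too was chosen with earlier results of these data known, so the comparison is a description only. At an unadjusted p under 0.05, 10 were lower and 0 higher, edgeR gave 10 lower and 0 higher, and DESeq2 gave 9 lower and 0 higher. PSMB8, an immunoproteasome subunit, had 302 to 424 normalized counts after HCF-1 siRNA and 425 to 549.8 after control siRNA, a log2 fold change of -0.41 ± 0.08 (adjusted p = 5.95e-04). TAPBPL, a peptide editor related to tapasin, fell by 0.63 ± 0.22 on the log2 scale (adjusted p = 0.0336). RFXAP, a subunit of the RFX complex that binds class I and class II promoters with NLRC5 or CIITA, fell by 0.43 ± 0.10 (adjusted p = 0.00264). The 2 other RFX subunits were named after their values were seen: RFXANK fell by 0.34 ± 0.09 (adjusted p = 0.00453), and RFX5 did not pass (-0.14 ± 0.10, adjusted p = 0.286). Of 9 class II genes, 8 were under the limit for testing, and CD74, the invariant chain, did not pass (-0.15 ± 0.06, adjusted p = 0.065).

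Among the 12 called members, the NKG2D ligand MICB had the largest decrease in the limma fit. MICB (ENSG00000204516) had 325 to 385 normalized counts after HCF-1 siRNA (median 371), against 407 to 1615 after control siRNA (median 927). In control replicates 1 to 8 the values were 1615, 480, 429, 1143, 1237, 972, 407 and 882. The HCF-1 siRNA libraries were tightly grouped, with a coefficient of variation of 5.30% against 48.7% in control libraries. The log2 fold change was -1.14 ± 0.25 (limma adjusted p = 0.00166). It ranged from -1.27 to -0.99 with 1 library left out, and from -1.31 to -0.99 over all 26 alternatives. Control replicates 2, 3 and 7, at 480, 429 and 407, lay near the HCF-1 siRNA libraries and apart from the other controls. Leaving out 1 library does not test such a split. The size of the decrease is thus less certain than its direction.

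MICA, the close relative of MICB, had 376 to 499 normalized counts after HCF-1 siRNA (median 453), against 361 to 451 after control siRNA (median 398), and did not pass (0.14 ± 0.07, limma adjusted p = 0.118). In 5 HCF-1 siRNA libraries MICA lay above every control library. MICB over MICA within a library was 0.741 to 0.966 after HCF-1 siRNA (median 0.809) and 0.903 to 4.14 after control siRNA (median 2.29). The 2 promoters are shown for comparison, with the CCAAT box, searched as CCAAT on both strands, in capitals (as ATTGG on the other strand). They were 77.8% identical over 316 aligned positions, and the CCAAT box was found at 2 places in MICA and 1 in MICB. The box is common, as 35.7% of all promoters held it.

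MICB promoter, chr6:31497895-31498194, plus strand: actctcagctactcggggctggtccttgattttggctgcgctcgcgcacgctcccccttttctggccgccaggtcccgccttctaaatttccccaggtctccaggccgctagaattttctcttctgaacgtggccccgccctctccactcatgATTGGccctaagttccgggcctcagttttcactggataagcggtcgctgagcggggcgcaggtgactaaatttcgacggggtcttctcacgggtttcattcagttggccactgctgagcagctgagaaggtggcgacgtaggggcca
MICA promoter, chr6:31403345-31403644, plus strand: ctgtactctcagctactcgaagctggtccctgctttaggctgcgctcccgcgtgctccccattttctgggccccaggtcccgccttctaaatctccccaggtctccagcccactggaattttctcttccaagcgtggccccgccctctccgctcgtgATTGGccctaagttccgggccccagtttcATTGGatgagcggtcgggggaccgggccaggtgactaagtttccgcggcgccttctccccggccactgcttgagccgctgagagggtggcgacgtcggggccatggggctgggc

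ULBP proteins are NKG2D ligands anchored by a lipid. ULBP3 had 19.5 to 42.4 normalized counts after HCF-1 siRNA (median 29.1), against 23.0 to 51.9 after control siRNA (median 38.1), and did not pass (adjusted p = 0.21). ULBP1 had 8.92 to 20.6 normalized counts after HCF-1 siRNA and 9.36 to 30.6 after control siRNA (adjusted p = 0.634). ULBP2 was at 0 in every library except 1 HCF-1 siRNA library with 1.44 normalized counts, and was not tested. These low values allow no firm statement. Among other ligands of natural killer cell receptors 6 were tested, and 1 rose and 2 fell, a number of genes too small to set against the 36.6% of all genes tested that were called. NCR3LG1, which encodes B7-H6, a ligand of the receptor NKp30, rose (0.42 ± 0.05, adjusted p = 4.52e-06), with 1024 to 1237 normalized counts after HCF-1 siRNA and 812 to 928 after control siRNA. ICAM1, an adhesion ligand, fell by 0.29 ± 0.07 (adjusted p = 0.00445), and PVRL2, or nectin-2, fell by 0.18 ± 0.05 (adjusted p = 0.00799).

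**Figure D3:**
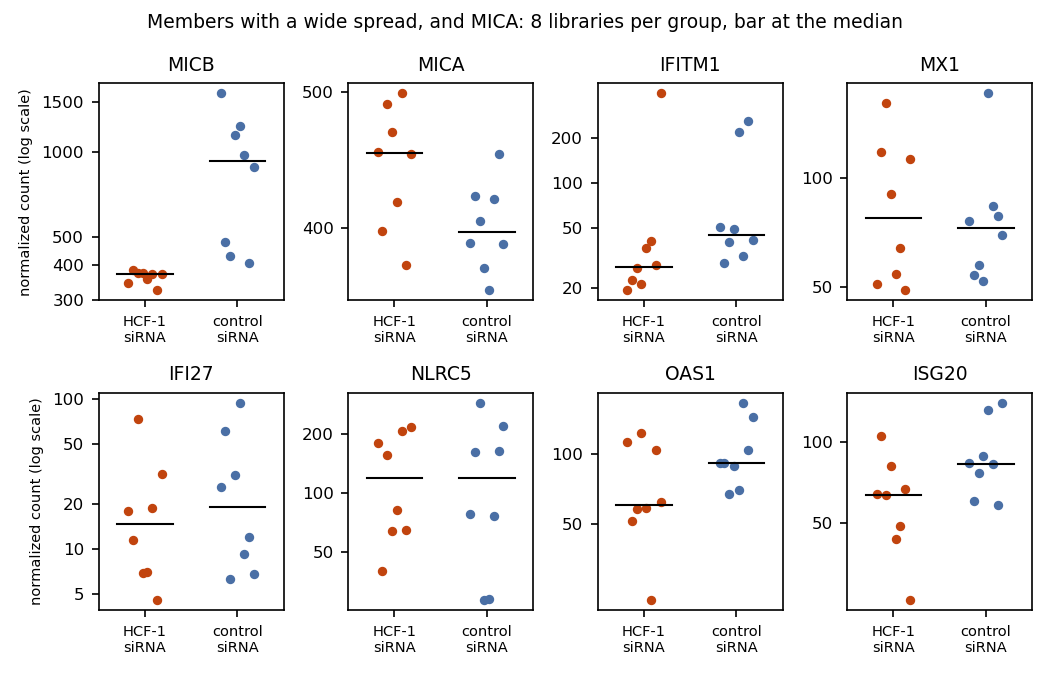
Normalized counts on a log scale, 1 point per library, with a bar at the median of 8 libraries, for the 7 genes of widest spread within a group and for MICA. MICB is spread over 407 to 1615 only in control siRNA libraries (right), while IFITM1, IFI27 and NLRC5 are spread in both groups.

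Wide spread within a group was found for 7 of the 36 tested genes, with a standard deviation above 0.5 on log2(normalized count + 10) in either group, against 13.3% of all genes tested. These were MICB, IFITM1, IFI27, MX1, NLRC5, OAS1 and ISG20, chosen by this rule after their values were seen. Of these 7, MICB passed the test.

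The upstream and parallel parts of the pathway were measured with lists of genes. These lists, like the members, were chosen with earlier results of these data known. The 8 interferon genes listed, among them IFNB1 and IFNL1, had at most 1.11 normalized counts in any library, and 5 were at 0 in all 16 libraries. In a single library 3 reads, the limit that a count of 0 allows, correspond to 2.00 to 3.41 normalized counts after HCF-1 siRNA and 2.55 to 3.99 after control siRNA, for counting error only. Of 16 tested genes of interferon receptors and signalling, 2 rose and 2 fell, and 12 did not pass. The share called was 25.0%, below the 36.6% of all genes tested. Their median log2 fold change was 0.03. SOCS3, a feedback inhibitor of cytokine signalling, fell by 0.69 ± 0.18 on the log2 scale, with 95.6 to 154 normalized counts after HCF-1 siRNA and 154 to 368 after control siRNA (limma adjusted p = 0.00636). IL10RB, a receptor chain shared by interferon lambda and interleukin-10, fell by 0.27 ± 0.07 (adjusted p = 0.00812). PIAS1, a SUMO ligase that restrains cytokine signalling, rose (0.18 ± 0.06, adjusted p = 0.0231).

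Among 33 other tested interferon-stimulated genes, 5 rose and 6 fell, and 22 did not pass. Their median log2 fold change was 0.01. UBE2L6, the enzyme that carries ISG15 to its targets, had 237 to 348 normalized counts after HCF-1 siRNA and 319 to 473 after control siRNA, and fell by 0.47 ± 0.10 (limma adjusted p = 8.95e-04). TRIM21, a cytosolic antibody receptor and ubiquitin ligase, fell by 0.54 ± 0.17 (adjusted p = 0.0195). TRIM22, another antiviral ubiquitin ligase, rose (0.53 ± 0.17, adjusted p = 0.0173). Interferon-stimulated genes as a wider set thus went both ways, and the share called, 33.3%, was near the 36.6% of all genes tested.

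**Figure D4:**
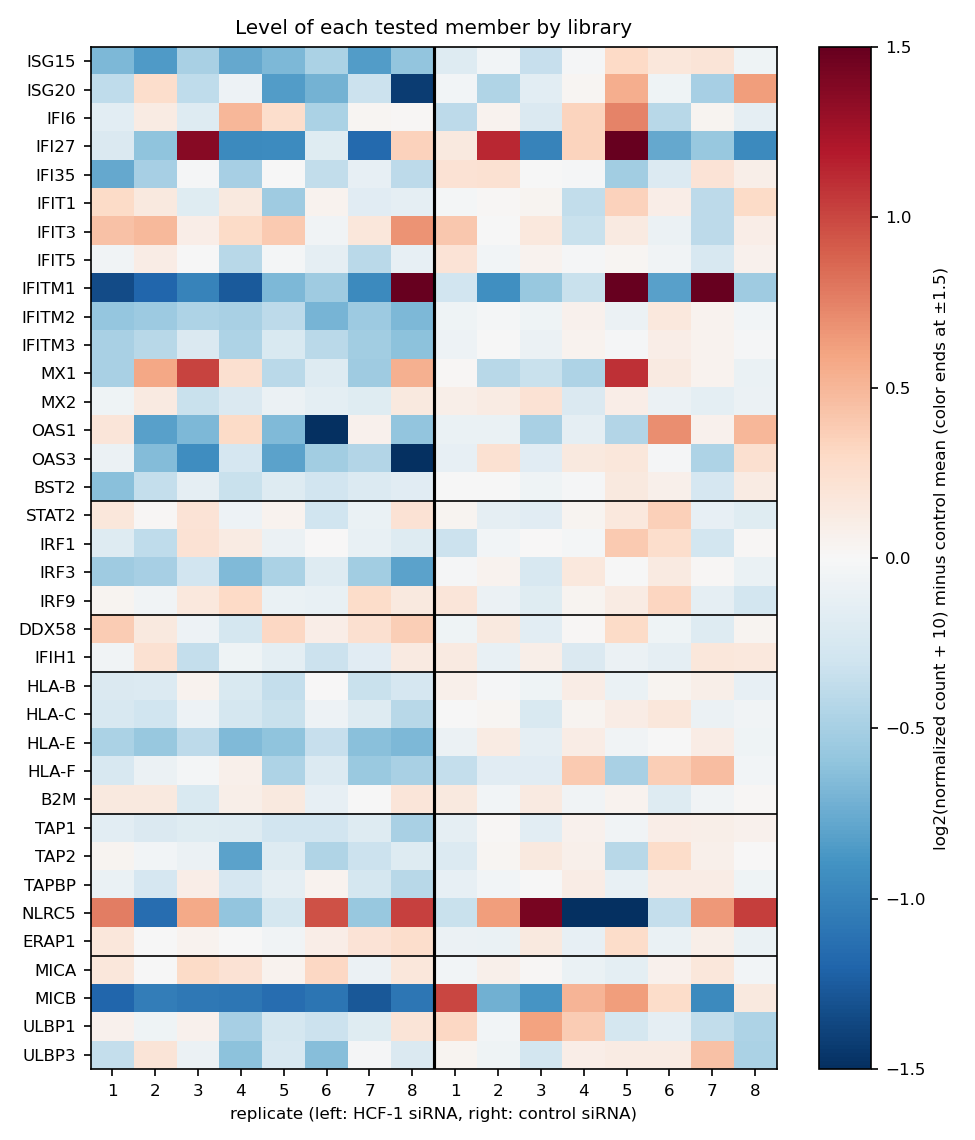
Level of the 36 tested genes in each library, as log2(normalized count + 10) minus the control mean (color ends at ±1.5), with the 8 HCF-1 siRNA libraries left and the 8 control siRNA libraries right and lines between roles. ISG15, IFITM2, IFITM3, IRF3, HLA-E and MICB are among the genes that are lower across all HCF-1 siRNA columns. IFI27, IFITM1 and NLRC5 change from library to library.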

How the data were processed

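Per the labels' protocols, the 16 HepG2 libraries, 8 per siRNA, were made with a stranded mRNA kit. The values deposited by the authors are normalized counts (signal scaled by a size factor), in 1 table for all libraries. The submitters' processing notes name DESeq2 1.16.1, featureCounts 1.4.4, STAR 2.4.1d and cutadapt 1.4.2, with build hg19. The sources used here do not give the annotation release, strand setting or handling of multi-mapped reads. Reads were recovered from the steps between values, and 100% came out whole within 0.001. On them edgeR called 5853 genes and DESeq2 6258. One column, whose name lacks a digit, was matched to HCF-1 siRNA replicate 1. No 2 libraries of the same group agreed within sampling noise.

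The test was limma 3.58.1 in R 4.3.3 (trend and robust options) on log2(normalized count + 1), keeping genes whose mean was 10 or more, with Benjamini-Hochberg adjustment over 16081 genes, of which 5879 were called. For a repeated symbol, the row of highest mean was taken. Exon length and overlap came from GENCODE 29, and promoters from RefSeq. Named genes were all members, HCFC1 and, per other list, up to 3 called genes of largest change whose mean reached 50 in a group (where none was called, the highest one). Members and lists were chosen with earlier results of these data known. Alternatives were other pseudocounts, filters and scalings, edgeR 4.0.16, DESeq2 1.42.0, a replicate block, each library left out in turn and, added after seeing the data, thinned reads. The fits were also run on simulated counts, with changes placed only in genes with a mean of 50 or more. Every simulated gene had the same excess spread, so that run says nothing about the members of wide spread.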

Additional observations from a re-analysis of the deposited data

Results flagged for a closer look

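Over 59 genes, 5 of 118 groups of 8 values held a single extreme library, whose distance to its neighbour was large for the spread of that group. Chance picks about 1 in 20 groups. IFITM1 in HCF-1 siRNA replicate 8 stood at 395.5 normalized counts, while the other HCF-1 siRNA libraries had 19.4 to 41.5. TAP1 had 809.5 normalized counts in the same library, against 929 to 1018 in the others. IFI27 in HCF-1 siRNA replicate 3 stood at 73.8 normalized counts, while the rest of its group had 4.55 to 31.5. MX1 in control siRNA replicate 5 stood at 172 normalized counts, while the rest of its group had 52.0 to 83.5. CDH5, an endothelial marker, stood at 144 normalized counts in control siRNA replicate 1, while the rest of its group had 75.4 to 94.4. The causes were not tested.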

How the results depend on the processing

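Over 26 alternatives 11 to 13 members were lower, and 5163 to 6258 genes were called in all. With 1 library left out, 11 to 13 members were lower, 0 to 1 higher, and 5491 to 5888 genes were called; the 1 higher was MICA without HCF-1 siRNA replicate 7 and IFIT3 without control siRNA replicate 1. Of the 12 calls, 11 held in every alternative run, and IFI35 did not. Members that passed only in some alternatives were ISG20, IFIT3, IFITM1, TAP2, TAPBP and MICA. Total-count scaling moved the share of higher calls to 43.2%, against 49.9%. Directions turned for 5 members, none called. The log2 fold change of IFI6 was -0.0111 with total-count scaling, -0.01573 with edgeR and -0.001989 with DESeq2, and -0.06225 to 0.1358 with 1 library left out. That of STAT2 was -0.004016 with total-count scaling and -0.003613 to 0.07606 with 1 library left out. That of NLRC5 was -0.0632 with edgeR, -0.04831 with DESeq2 and -0.1217 to 0.347 with 1 library left out. IFIT1 ran from -0.1264 to 0.0269 and MX1 from -0.04302 to 0.2704 with 1 library left out. The causes were not tested. Same-numbered libraries had correlations of -0.13 to 0.138 between their deviations from the group means. HCF-1 siRNA replicates 6 and 8 correlated best with the control siRNA library of their own number (0.138 and 0.137), and the others with another number. These weak correlations do not show a pairing by number and cannot exclude one. With the replicate block 5484 genes were called and 11 members were lower. With the filter at a mean of 50, IFI27, IFIT1, IFIT3, ULBP1 and ULBP3 gave no value. Members near 10 normalized counts are limited by counting error.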

Other observations

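Control siRNA replicate 5 had the highest value of its group for 9 of the 36 tested members (ISG15, IFI6, IFI27, IFIT1, MX1, BST2, IRF1, DDX58 and ERAP1), 25.0% of them, and for 11.1% of all genes tested. Of the 16 effectors it was highest for 6. Without this library 13 members were lower and 0 higher, and the log2 fold change of ISG15 was -0.656 (limma adjusted p = 8.24e-05). Among the HCF-1 siRNA libraries, replicates 3 and 8 were each highest for 8 of the 36, or 22.2%, and replicate 7 for 0. For all genes tested those shares were 14.2%, 14.9% and 12.9%. HCF-1 siRNA replicate 8 was also the lowest of its group for 8 of the 36, and for 17.4% of all genes tested. Control siRNA replicate 6 was the highest of its group for 8 of the 36, or 22.2%, against 15.6% of all genes tested. Effectors that were highest in control replicate 5 included IFI6, IFIT1 and MX1, which did not pass between the groups, and ISG15 and BST2, which fell. Replicates have no order, and the libraries were not grouped by these values.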
